A study of Mus musculus with 1470 samples.

Results

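The genes of the proteasome were taken from a table of single-cell expression of the mouse liver as every gene whose symbol starts with Psma, Psmb, Psmc, Psmd, Psme or Psmg, which gave 48 of the 14915 genes in the table. They comprised 8 Psma, 10 Psmb, 7 Psmc, 14 Psmd, 5 Psme and 4 Psmg genes, and 1 of them, Psmc3ip, carries the name without being a proteasome subunit. To compare lean and obese livers, non-parenchymal cells (NPCs), that is, the cells of the liver other than hepatocytes, were freed by collagenase digestion in the living animal, sorted singly and profiled with Smart-seq2, a full-length protocol without molecular identifiers. The animals were male wild-type C57BL/6J mice, all with the same genotype, 3 of which received normal chow (ND1 to ND3) and 3 a high-fat diet (HFD1 to HFD3) for 9 weeks from 5 weeks of age. The table held 1470 cells, 718 from ND and 752 from HFD mice. The mouse, not the cell, was the replicate, and nothing in the labels ties an ND mouse to an HFD mouse.

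The proteasome is the barrel-shaped protease that degrades ubiquitin-tagged proteins, and its core is built from outer rings of alpha subunits around inner rings of beta subunits. Of the beta subunits, 3 cut peptide bonds: Psmb6 (beta1, caspase-like), Psmb7 (beta2, trypsin-like) and Psmb5 (beta5, chymotrypsin-like). In lymphoid and myeloid cells, and in other cells exposed to interferon-gamma, they are exchanged for Psmb9, Psmb10 and Psmb8, respectively, which form the immunoproteasome and yield peptides suited to presentation on MHC class I. The liver holds resident macrophages (Kupffer cells, KCs), a specialised endothelium and many lymphocytes, so both forms can be set side by side among cells of 1 organ.

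Because the comparison below turns on these catalytic subunits, the start regions of their genes, Psmb7 excepted, are given first. Each window runs from 250 bases before to 50 bases after a RefSeq transcript start on the mouse genome build GRCm38.p6, printed 5′ to 3′ on the strand of the gene. Capitals mark the only matches to the searched motifs, those to TGACNNNGC, the antioxidant-type element bound by CNC factors such as Nfe2l1 and Nfe2l2.
Psmb8, chr17:34197945-34198244, plus strand: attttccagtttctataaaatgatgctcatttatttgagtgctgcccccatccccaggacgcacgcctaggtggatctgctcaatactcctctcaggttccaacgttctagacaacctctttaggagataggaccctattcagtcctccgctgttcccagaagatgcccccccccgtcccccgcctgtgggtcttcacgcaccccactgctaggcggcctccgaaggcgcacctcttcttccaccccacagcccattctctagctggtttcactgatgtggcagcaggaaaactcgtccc
Psmb9, chr17:34187281-34187580, minus strand: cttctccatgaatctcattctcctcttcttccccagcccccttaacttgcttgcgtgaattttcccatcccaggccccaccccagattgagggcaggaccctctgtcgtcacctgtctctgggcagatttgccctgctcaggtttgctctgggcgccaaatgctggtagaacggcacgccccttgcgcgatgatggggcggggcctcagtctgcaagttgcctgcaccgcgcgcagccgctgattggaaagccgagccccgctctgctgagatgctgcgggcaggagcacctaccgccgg
Psmb10, chr8:105938343-105938642, minus strand: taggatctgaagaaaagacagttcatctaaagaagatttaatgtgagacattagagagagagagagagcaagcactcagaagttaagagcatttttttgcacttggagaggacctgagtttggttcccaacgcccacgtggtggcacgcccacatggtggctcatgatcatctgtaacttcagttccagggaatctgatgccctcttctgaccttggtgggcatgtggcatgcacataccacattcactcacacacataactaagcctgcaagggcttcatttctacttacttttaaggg
Psmb5, chr14:54617946-54618245, minus strand: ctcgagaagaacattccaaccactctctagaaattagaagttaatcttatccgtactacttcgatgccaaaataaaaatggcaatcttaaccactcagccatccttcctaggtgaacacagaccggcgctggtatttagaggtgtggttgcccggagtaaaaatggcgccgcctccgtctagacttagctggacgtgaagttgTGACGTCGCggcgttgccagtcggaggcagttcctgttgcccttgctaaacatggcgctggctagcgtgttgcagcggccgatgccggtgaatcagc
Psmb6, chr11:70525107-70525406, plus strand: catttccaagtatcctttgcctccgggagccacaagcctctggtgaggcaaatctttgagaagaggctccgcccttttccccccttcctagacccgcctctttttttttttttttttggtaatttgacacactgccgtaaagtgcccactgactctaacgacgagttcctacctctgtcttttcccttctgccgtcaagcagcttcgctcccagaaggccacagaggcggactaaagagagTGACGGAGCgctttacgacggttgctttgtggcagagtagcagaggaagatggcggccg

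Psmb8 and Psmb9 lie side by side in the MHC region of chromosome 17 with the peptide transporter genes Tap1 and Tap2. In the GENCODE annotation of GRCm38, Psmb9 spans 34181987 to 34187764 on the minus strand, Tap1 34187553 to 34197225, Psmb8 34197721 to 34201454 and Tap2 34203527 to 34216321 on the plus strand. The Psmb8 and Psmb9 windows lie wholly inside the spans of their genes, so their transcript starts are not the outermost annotated ones. The Psmb9 window shared 275 of its 300 bases with the window of Tap1, which starts in the opposite direction. Psmb10 (chromosome 8, 105935735 to 105938444, minus strand), Psmb5 (chromosome 14, 54614119 to 54618022, minus strand), Psmb6 (chromosome 11, 70525367 to 70527858, plus strand) and Psmb7 (chromosome 2, 38588036 to 38644087, minus strand) lie elsewhere. RefSeq windows were matched for 40 of the 48 members, as 43 windows.

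Searched on both strands, TGACNNNGC was held by 12.39% of 32851 windows of the same length and by 6 of the 43 member windows, those of Psmb5, Psmb6, Psmc6, Psmd12, Psmd9 and Psme4. GAAANNGAAA, a core recognised by interferon regulatory factors, was held by 3.443% of all windows and by 5 member windows, those of Psmb3, Psmd4, Psmd9, Psme1 and Psmg4. GGGNNTTTCC, a core recognised by NF-kB, was held by 1.629% of all windows and by 0 member windows. Such matches describe letters and not occupied sites.

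Cells were grouped into 10 marker-defined classes by clustering on other genes: the 48 members and the further genes examined here were held out. Of these, 6 came from enough mice for a comparison: endothelial-like (30.3% of cells), T-cell-like (21.4%), KC-like (17.8%), B-cell-like (16.9%), monocyte-derived macrophage or dendritic (MoMac/DC)-like (2.79%) and erythrocyte-like cells (2.38%). The last of these lacked HFD3, which had 1 such cell. The MoMac/DC-like values rested on 6 to 8 cells per mouse and the erythrocyte-like values on 5 to 9. NK-like (38 cells), hepatocyte-like (34), neutrophil-like (29) and plasmacytoid dendritic (pDC)-like (22) cells came in sufficient number from only 2 or 3 mice and are described without a test. In every class the defining markers were detected, from 7 of 10 for MoMac/DC-like and 6 of 8 for neutrophil-like cells to all markers in the table for the others. Detection alone did not set the classes apart: all 8 endothelial markers were also detected in every other class, where their summed level was 18.96 to 29.63 against 68.31 in endothelial-like cells. The MoMac/DC list was higher in pDC-like cells (8 of 10 detected, summed level 42.67) than in MoMac/DC-like cells (38.04), and at 6.242 to 18.05 in the others. The classes and the values compared come from the same cells.

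Depth differed between mice and classes. HFD2 had the fewest genes per cell, with a median of 1595.5 genes at 1 RPKM or more against 2363.5 to 3163 in the other mice. In the column names the cells of each other mouse share a prefix of their own, whereas those of HFD2 carry none. What the prefix stands for is not given, and mouse and prefix cannot be told apart. Among the 6 compared classes the median was highest in MoMac/DC-like cells, at 3237, and lowest in erythrocyte-like cells, at 1774. RPKM scales reads to the length of the transcript and to the reads of the cell, so levels of different genes can be set side by side. Levels below are means of log2(RPKM + 1) over the cells of a class in a mouse, followed by the mean ± SD over mice, and they are not RNA per cell in absolute terms.

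Of the immunoproteasome subunits, Psmb8 was the most abundant. It stood highest in T-cell-like and MoMac/DC-like cells and lowest in endothelial-like and erythrocyte-like cells. Psmb8 (beta5i) was found at 1 RPKM or more in 86.1% of all cells, against 35.7% for its constitutive counterpart Psmb5. In T-cell-like cells Psmb8 was at 8.86, 8.96 and 8.54 in ND1 to ND3 and at 9.48, 6.83 and 8.07 in HFD1 to HFD3 (8.46 ± 0.92, n = 6). MoMac/DC-like cells had 8.90, 8.78 and 7.44 in the ND mice and 8.67, 6.99 and 7.95 in the HFD mice (8.12 ± 0.79, n = 6). The lowest T-cell-like and MoMac/DC-like values were both those of HFD2, and they exceeded every endothelial-like and erythrocyte-like value.

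KC-like cells had Psmb8 levels of 6.47, 6.82, 5.72, 6.56, 4.22 and 6.71 from ND1 to HFD3 (6.08 ± 0.99). In B-cell-like cells the same gene was at 6.72, 6.41, 5.92, 6.53, 5.07 and 5.74 (6.07 ± 0.61). Both classes lay between the high and the low classes, and their ranges overlapped one another nearly whole. Endothelial-like cells had 5.46, 4.74, 4.78, 4.2, 2.97 and 4.66 (4.47 ± 0.84), and erythrocyte-like cells 4.83, 4.38, 3.03, 2.52 and 4.03 (3.76 ± 0.96, n = 5). Every endothelial-like value was below the T-cell-like and MoMac/DC-like value of the same mouse.

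**Figure D1:**
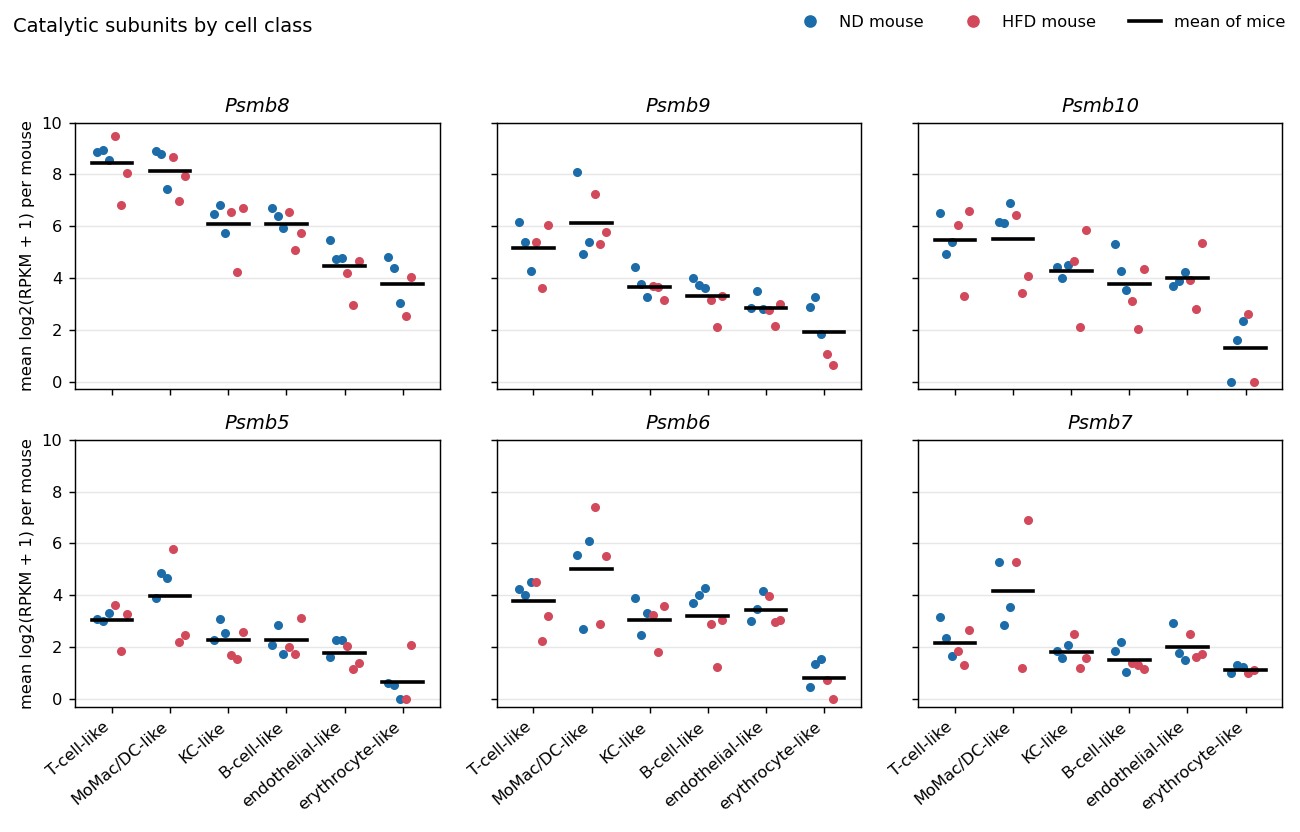
Mean log2(RPKM + 1) of the 6 catalytic beta subunits (vertical axes) by cell class (horizontal axes). Each point is a mouse, coloured by diet, and the horizontal bar is the mean over mice: Psmb8 runs from 3.76 in erythrocyte-like to 8.46 in T-cell-like cells, while Psmb6 differs little between T-cell-like (3.79) and endothelial-like (3.43) cells.

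Psmb8 was 2.76 ± 0.26 (SE) log2 units higher in T-cell-like cells than in the mean of the other 5 classes, in 6 of 6 mice (adjusted p = 5.58e-11, limma with the mouse as a block over 3989 genes). The difference was 2.36 ± 0.26 in MoMac/DC-like cells (6 of 6 mice, limma adjusted p = 1.32e-09). The SE of each class difference here and below rests on a spread shared by all classes. That of the small MoMac/DC-like class thus does not show the spread between its own mice. Endothelial-like cells lay below the other classes by −2.03 ± 0.26 in 6 of 6 mice (limma adjusted p = 4.29e-08), and erythrocyte-like cells by −2.89 ± 0.29 in 5 of 5 (limma adjusted p = 1.37e-10). Between neighbours in the order of levels, T-cell-like and MoMac/DC-like cells did not differ beyond the spread (limma adjusted p = 0.459), nor did KC-like and B-cell-like (0.98) or endothelial-like and erythrocyte-like cells (0.0872), whereas the steps between these 3 tiers did.

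Psmb9 (beta1i) had a somewhat different order, with MoMac/DC-like cells on top. These had 8.10, 4.91 and 5.39 in ND1 to ND3 and 7.23, 5.33 and 5.78 in HFD1 to HFD3 (6.12 ± 1.26). In T-cell-like cells Psmb9 was at 6.17, 5.40, 4.26, 5.39, 3.61 and 6.04 (5.15 ± 1.01). The ranges of the 2 classes overlapped, but within the mouse block the difference of 0.98 ± 0.38 passed the threshold (limma adjusted p = 0.0347). KC-like cells had 3.66 ± 0.45, B-cell-like cells 3.32 ± 0.66, endothelial-like cells 2.85 ± 0.44 and erythrocyte-like cells 1.93 ± 1.13 (n = 5). The differences of B-cell-like cells from KC-like (limma adjusted p = 0.555) and endothelial-like cells (0.393) did not pass the threshold.

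Against the mean of the other classes, Psmb9 was higher in MoMac/DC-like cells by 2.74 ± 0.29 (limma adjusted p = 5.32e-10) and in T-cell-like cells by 1.57 ± 0.29 (3.21e-05), each in 6 of 6 mice. It was lower in endothelial-like cells by −1.19 ± 0.29, in 6 of 6 mice (limma adjusted p = 0.00108), and in erythrocyte-like cells by −2.29 ± 0.32 (1.98e-07). The endothelial-like call was lost when RPKM values were averaged before the logarithm, where the difference was −0.32 (limma adjusted p = 0.504). The erythrocyte-like call was lost with classes set by marker scores alone (−0.86, limma adjusted p = 0.102).

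Psmb10 (beta2i) separated T-cell-like and MoMac/DC-like cells from the rest less sharply, and its endothelial-like level was not low over all cells. T-cell-like cells had 6.51, 4.92 and 5.39 in the ND mice and 6.03, 3.33 and 6.58 in the HFD mice (5.46 ± 1.23), and MoMac/DC-like cells 6.18, 6.12, 6.91, 6.42, 3.41 and 4.08 (5.52 ± 1.42). Endothelial-like cells were at 3.68, 3.89, 4.25, 3.92, 2.81 and 5.36 (3.98 ± 0.83), overlapping the other 2 ranges. KC-like and B-cell-like cells had 4.25 ± 1.23 and 3.77 ± 1.13, respectively, and erythrocyte-like cells 1.31 ± 1.25 (n = 5) with 2 of 5 mice at 0. Psmb10 was higher in T-cell-like cells by 1.66 ± 0.35 (6 of 6 mice, limma adjusted p = 0.000146) and in MoMac/DC-like cells by 1.74 ± 0.35 (5 of 6, limma adjusted p = 4.52e-05) and lower in erythrocyte-like cells by −3.16 ± 0.38 (limma adjusted p = 1.05e-08). For endothelial-like cells the difference was −0.10 (limma adjusted p = 0.848), and KC-like, B-cell-like and endothelial-like cells did not differ from one another beyond the spread. In cells with at least 2000 genes the endothelial-like difference was −0.90 and passed the threshold (limma adjusted p = 0.0437).

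Of the constitutive counterparts, Psmb5 and Psmb7 had means below those of Psmb8 and Psmb10, respectively, in all 6 compared classes, whereas Psmb6 was above Psmb9 in endothelial-like cells. Psmb5 (beta5) in T-cell-like cells was at 3.09, 3.0 and 3.32 in ND1 to ND3 and at 3.64, 1.86 and 3.28 in HFD1 to HFD3 (3.03 ± 0.62). MoMac/DC-like cells had 3.88, 4.84, 4.68, 5.79, 2.19 and 2.47 (3.97 ± 1.41) and endothelial-like cells 1.60, 2.26, 2.29, 2.04, 1.15 and 1.37 (1.78 ± 0.48). KC-like cells had 2.28 ± 0.59, B-cell-like cells 2.26 ± 0.59 and erythrocyte-like cells 0.65 ± 0.85. Psmb5 was higher in MoMac/DC-like cells by 1.98 ± 0.33 (limma adjusted p = 3.6e-06), a call lost when averaging preceded the logarithm (0.80, limma adjusted p = 0.329). In T-cell-like cells the difference was 0.85 ± 0.33 (6 of 6 mice, limma adjusted p = 0.0342), and that call did not hold once ND1, ND3, HFD1 or HFD3 was left out (0.74 to 0.82, limma adjusted p from 0.0692 to 0.0991).

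Psmb6 (beta1) had the highest mean of the constitutive catalytic subunits in 5 of the 6 compared classes, erythrocyte-like cells being the exception. It was at 3.0, 3.45, 4.15, 3.95, 2.97 and 3.03 in endothelial-like cells (3.43 ± 0.52), within the T-cell-like range of 4.25, 4.01, 4.51, 4.53, 2.24 and 3.19 (3.79 ± 0.90). B-cell-like and KC-like cells had 3.19 ± 1.10 and 3.05 ± 0.78, MoMac/DC-like cells 5.02 ± 1.85 and erythrocyte-like cells 0.82 ± 0.63. T-cell-like, endothelial-like, B-cell-like and KC-like cells did not differ from one another beyond the spread, with limma adjusted p from 0.164 to 0.854. Psmb7 (beta2) was at 5.29, 2.86, 3.56, 5.27, 1.19 and 6.88 in MoMac/DC-like cells (4.18 ± 2.04) and at 2.17 ± 0.69 in T-cell-like, 2.0 ± 0.58 in endothelial-like, 1.80 ± 0.45 in KC-like, 1.48 ± 0.45 in B-cell-like and 1.12 ± 0.14 in erythrocyte-like cells. Among pairs of classes, those with MoMac/DC-like cells were the ones that passed the test for Psmb7, and the T-cell-like difference from the other classes was 0.03 (limma adjusted p = 0.95).

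Within each class the subunits were then paired by position in the ring, as the level of the immunoproteasome subunit minus that of its constitutive counterpart in the same mouse. For the beta5 pair, Psmb8 minus Psmb5 was 5.76, 5.96, 5.23, 5.85, 4.97 and 4.79 in T-cell-like cells (5.43 ± 0.50). In endothelial-like cells the difference was 3.86, 2.48, 2.49, 2.16, 1.82 and 3.29 (2.68 ± 0.75). All T-cell-like differences were larger than all endothelial-like ones. The other classes had means between these: 4.15 ± 1.14 in MoMac/DC-like, 3.81 ± 0.78 in both B-cell-like and KC-like and 3.11 ± 0.93 in erythrocyte-like cells (n = 5).

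Psmb8 exceeded Psmb5 in every mouse of every class, with exact p = 0.03125 in the classes with 6 mice and 0.0625 in erythrocyte-like cells, the smallest values that two-sided sign flips over 6 and 5 mice allow. After Benjamini-Hochberg adjustment over the 18 pair tests the smallest of these exact p was 0.0625, so that none was under 0.05. As RPKM over all cells, Psmb8 stood to Psmb5 at a ratio of 10 in T-cell-like, 9.04 in MoMac/DC-like, 6.09 in KC-like, 4.98 in B-cell-like, 3.62 in endothelial-like and 2.11 in erythrocyte-like cells, so that by this measure erythrocyte-like cells were the lowest. Among T-cell-like cells 51.6% had Psmb8 alone at 1 RPKM or more, 41.4% both and 0.955% Psmb5 alone, but a transcript missed by chance in a single cell counts here as absent.

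**Figure D2:**
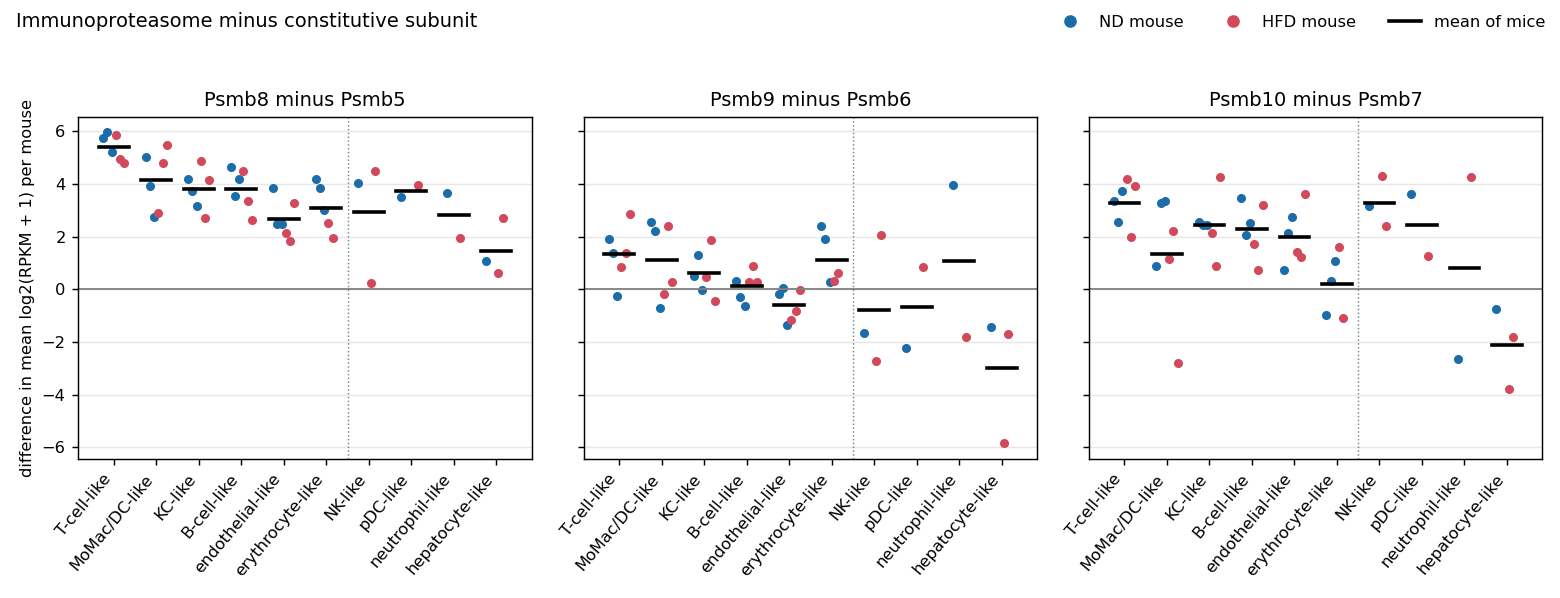
Difference between the immunoproteasome and the constitutive subunit of each ring position (vertical axes, log2 units) by cell class (horizontal axes). Points are mice coloured by diet, horizontal bars the mean over mice, the line at 0 marks equal levels, and classes right of the dotted line came from 2 or 3 mice: the beta5 difference is above 0 in all mice, and the beta1 difference of endothelial-like cells (mean −0.58) is below 0 in 5 of 6 mice.

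For the beta1 pair the mice of most classes lay on both sides of 0. Psmb9 minus Psmb6 was 1.92, 1.39, −0.25, 0.86, 1.37 and 2.85 in T-cell-like cells (1.36 ± 1.04, 5 of 6 mice above 0, exact p = 0.0625). Endothelial-like cells had −0.16, 0.06, −1.36, −1.17, −0.83 and −0.03 (−0.58 ± 0.62, 1 of 6 mice above 0, exact p = 0.09375). On this scale the endothelial-like mean was the only negative one among the 6 compared classes. MoMac/DC-like (1.10 ± 1.45), KC-like (0.62 ± 0.85) and B-cell-like cells (0.13 ± 0.53) each had 4 of 6 mice above 0, and erythrocyte-like cells (1.11 ± 0.98) had 5 of 5. As RPKM over all cells, Psmb9 stood to Psmb6 at a ratio under 1 in endothelial-like (0.871) and also in KC-like cells (0.944), and at 1.09 in B-cell-like, 1.68 in MoMac/DC-like, 1.88 in T-cell-like and 4.52 in erythrocyte-like cells.

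For the beta2 pair, Psmb10 minus Psmb7 was 3.29 ± 0.85 in T-cell-like, 2.46 ± 1.08 in KC-like, 2.29 ± 1.0 in B-cell-like and 1.98 ± 1.07 in endothelial-like cells, above 0 in 6 of 6 mice of each class (exact p = 0.03125). In MoMac/DC-like cells it ranged from −2.81 in HFD3 to 3.36 in ND3 (1.34 ± 2.28, exact p = 0.1875), and in erythrocyte-like cells it was 0.19 ± 1.22 (exact p = 0.75). The spread between mice thus exceeded the difference in both small classes. As RPKM over all cells, Psmb10 stood to Psmb7 at a ratio of 4.6 in T-cell-like, 4.39 in B-cell-like, 4.0 in KC-like, 2.93 in MoMac/DC-like, 2.58 in endothelial-like and 1.39 in erythrocyte-like cells, so that MoMac/DC-like cells lay above endothelial-like cells by this measure and below them by the mean of logs.

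Set between classes within the same mouse, the beta5 difference was larger in T-cell-like than in endothelial-like cells by 2.74 ± 0.88 (SD), in 6 of 6 mice. B-cell-like minus T-cell-like cells gave −1.61 ± 0.56 and KC-like minus T-cell-like cells −1.62 ± 0.69, while KC-like and MoMac/DC-like cells exceeded endothelial-like cells by 1.12 ± 0.84 and 1.47 ± 0.99, again in 6 of 6 mice each. The beta1 difference of T-cell-like cells exceeded that of endothelial-like cells by 1.94 ± 0.64, with −1.22 ± 0.88 for B-cell-like minus T-cell-like cells, and the beta2 difference that of endothelial-like cells by 1.31 ± 1.10. Each of these, like the step of 1.68 ± 1.20 from endothelial-like to MoMac/DC-like cells for beta1, had the smallest exact p that 6 mice allow, 0.03125, which became 0.156 over the 45 comparisons of this kind. None of the 45 exact p was therefore under 0.05 after adjustment.

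The classes present in few mice included some with Psmb9 below Psmb6. In hepatocyte-like cells, which hold the ubiquitous form of the proteasome at rest, Psmb9 minus Psmb6 was −1.42 in ND1, −5.84 in HFD1 and −1.68 in HFD2, and Psmb10 minus Psmb7 was −0.74, −3.77 and −1.82. Both differences were below 0 in all 3 mice, while Psmb8 minus Psmb5 was 1.08, 0.63 and 2.70. As RPKM over all 34 cells, Psmb9 was at 0.149 times Psmb6 and Psmb10 at 0.135 times Psmb7, whereas Psmb8 was at 2.28 times Psmb5. In NK-like cells Psmb9 minus Psmb6 was −1.67 in ND1, −2.73 in HFD1 and 2.07 in HFD2, and in pDC-like cells −2.22 in ND1 and 0.85 in HFD2. Neutrophil-like cells had 3.95 in ND2 and −1.82 in HFD2, so in these 3 classes the sign differed between mice. In pDC-like cells Psmb8 was at 8.45 in ND1 and 8.36 in HFD2, within the T-cell-like range, and in NK-like cells it was at 7.77 in ND1, 6.23 in HFD1 and 6.70 in HFD2. Neutrophil-like cells had Psmb8 at 5.43 in ND2 and 3.07 in HFD2. The sum of the hepatocyte marker levels was 79.4 in hepatocyte-like cells, 47.9 in KC-like cells and 13.5 to 27.4 in the other classes. Hepatocyte RNA thus differed between the classes compared, and its part in the KC-like levels was not tested.

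Of the activators, the PA28 subunits Psme1 (PA28-alpha) and Psme2 (PA28-beta), which cap the core and are induced by interferon-gamma, were, like Psmb8, higher in T-cell-like and MoMac/DC-like cells and lower in erythrocyte-like cells. Psme1 in T-cell-like cells was at 7.90, 7.64 and 7.28 in ND1 to ND3 and at 7.55, 6.15 and 7.89 in HFD1 to HFD3 (7.40 ± 0.66). MoMac/DC-like cells had 8.56, 7.90, 8.39, 6.67, 4.04 and 6.60 (7.03 ± 1.69), and endothelial-like cells 5.11, 4.58, 5.88, 4.69, 3.14 and 4.85 (4.71 ± 0.90). All T-cell-like values lay above all endothelial-like ones. KC-like cells were at 5.92 ± 1.47, B-cell-like cells at 5.24 ± 0.90 and erythrocyte-like cells at 1.98 ± 1.03. Psme1 was higher in T-cell-like cells by 2.42 ± 0.30 (6 of 6 mice, limma adjusted p = 2.52e-08) and in MoMac/DC-like cells by 1.97 ± 0.30 (7.36e-07), and lower in erythrocyte-like cells by −4.04 ± 0.33 (9.6e-13). Its endothelial-like difference of −0.81 ± 0.30 (limma adjusted p = 0.0286) did not pass once ND1, ND2, HFD1 or HFD3 was left out (−0.81 to −0.66, limma adjusted p from 0.0589 to 0.145).

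Psme2 was at 5.16 ± 0.86 in T-cell-like and 5.26 ± 1.77 in MoMac/DC-like cells, against 3.02 ± 0.89 in KC-like, 2.56 ± 0.37 in endothelial-like, 2.22 ± 0.37 in B-cell-like and 0.63 ± 0.80 in erythrocyte-like cells. In the MoMac/DC-like class HFD2 had 1.75 and the other mice 5.26 to 6.46. Psme2 was higher in T-cell-like cells by 2.42 ± 0.33 (limma adjusted p = 1.48e-07) and in MoMac/DC-like cells by 2.54 ± 0.33 (3.34e-08), and lower in erythrocyte-like cells by −3.00 ± 0.36 (1.06e-08). In B-cell-like cells it was lower (−1.11 ± 0.33, limma adjusted p = 0.0079), a difference that turned to 0.23 with averaging before the logarithm, and its endothelial-like difference of −0.70 ± 0.33 did not pass the threshold (limma adjusted p = 0.0902), though it did without HFD2 (−0.85, limma adjusted p = 0.018) or without the erythrocyte-like class (−1.36, limma adjusted p = 0.001). Psme2b, a copy of Psme2 on chromosome 11, was listed at 6.82 ± 0.91 and 6.64 ± 1.57 in the same classes and at 0.63 ± 0.81 in erythrocyte-like cells. Only uniquely mapped reads were kept by the authors, and how well these separate the copies was not tested, so the values of both are uncertain.

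Psme3 (PA28-gamma), the nuclear activator, had another order. In erythrocyte-like cells it was at 5.16, 1.54, 1.62, 5.51 and 1.97 in ND1, ND2, ND3, HFD1 and HFD2 (3.16 ± 2.0), and in the other compared classes its mean was at most 2.31. ND1 and HFD1 were high and the other 3 mice lay within the ranges of the other classes. The difference from the other classes was 1.45 ± 0.40 (4 of 5 mice, limma adjusted p = 0.00165). It did not separate erythrocyte-like from T-cell-like cells (0.97 ± 0.50, limma adjusted p = 0.0856). In endothelial-like cells Psme3 was lower by −0.94 ± 0.37 (limma adjusted p = 0.038), a call lost without ND1, HFD1 or HFD2 (−1.02 to −0.79, limma adjusted p from 0.0602 to 0.146). Psme4 (PA200) was below the filter on low values.

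**Figure D3:**
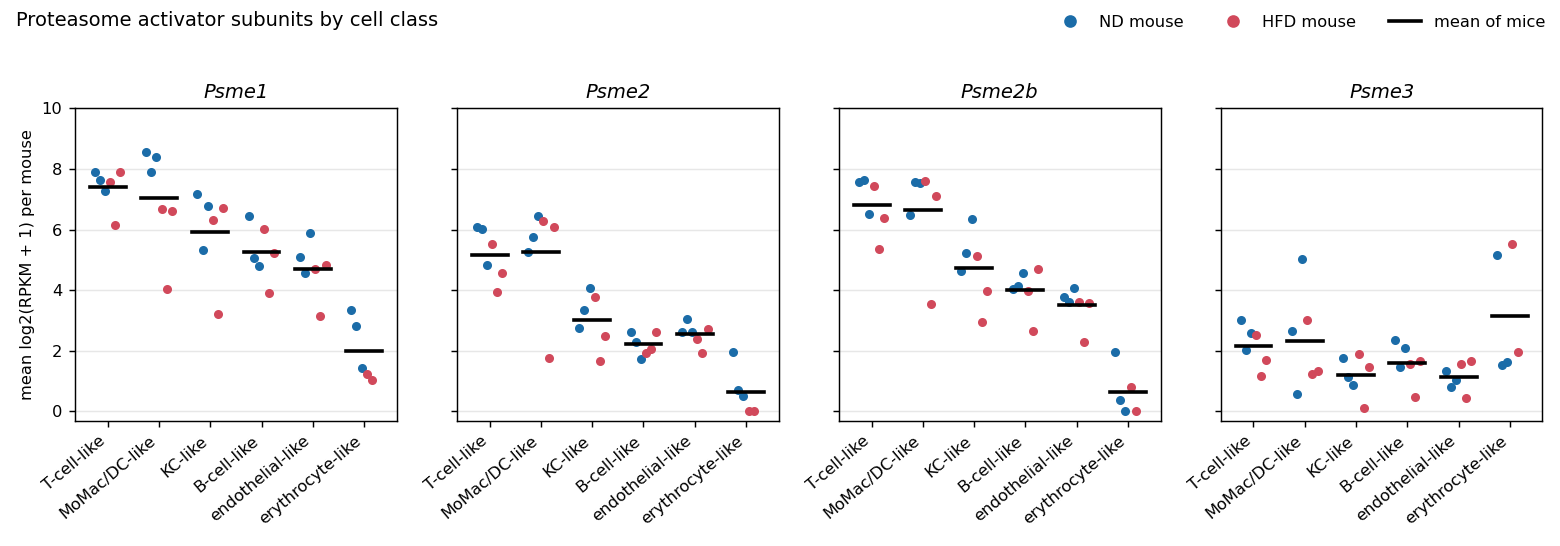
Mean log2(RPKM + 1) of the proteasome activators Psme1, Psme2, Psme2b and Psme3 (vertical axes) by cell class (horizontal axes), 1 point per mouse coloured by diet, with a horizontal bar at the mean over mice. Psme1, Psme2 and Psme2b are highest in T-cell-like and MoMac/DC-like cells, and Psme3 in erythrocyte-like cells, where 2 of 5 mice are above 5.

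Across the whole complex, 39 of the 48 members had a mean of at least 1 and were tested. The other 9 were the chaperones of the regulatory particle Psmd5, Psmd9 and Psmd10, the assembly chaperones of the core Psmg1, Psmg2 and Psmg3, Psme4, Psmc3ip and the testis-type alpha subunit Psma8, which was seen at 1 RPKM or more in 0.544% of cells. Highest means fell in MoMac/DC-like cells for 30 of the 39, in T-cell-like cells for 6, in endothelial-like cells for 2 (Psmd3 and Psmd7) and in erythrocyte-like cells for 1 (Psme3). The same shares over all genes were not computed, so these counts show nothing particular to the proteasome genes. In MoMac/DC-like cells 34 of the 39 (87.2%) were higher and 0 lower, but 62.4% of all 3989 genes tested were higher there and 10.7% lower. With each mouse and class centred on its median gene, 21 members were higher and 1 lower against 25.8% and 28.8% of genes, and with averaging before the logarithm 16 of 47 were higher and 1 lower against 15% and 15.9%. The median of all genes' differences in this class was 0.86, and the class had the most genes per cell. The part of depth in these calls was not tested.

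The MoMac/DC-like calls covered 7 of 7 alpha subunits tested, 4 of 4 structural beta subunits, 3 of 3 constitutive and 3 of 3 immunoproteasome catalytic subunits, 5 of 6 base ATPases, 8 of 11 non-ATPase subunits of the regulatory particle, 3 of 4 activators and the 1 assembly chaperone of the core that was tested, Psmg4. The alpha subunit Psma7 was at 8.22, 5.98, 6.97, 8.52, 5.98 and 5.69 (6.89 ± 1.23) and was higher by 2.97 ± 0.35 in 6 of 6 mice (limma adjusted p = 5.22e-09). Psma2, also of the alpha ring, was at 5.39, 6.51, 7.49, 6.44, 2.57 and 3.5 (5.32 ± 1.91) and higher by 2.34 ± 0.30 (limma adjusted p = 2.42e-08). In both genes the HFD2 or HFD3 value was the lowest.

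T-cell-like cells had 14 of 39 members higher (35.9%) and 0 lower, against 32.1% and 17.5% of all genes, so the count of higher members was near the background. With averaging before the logarithm 28 of 47 were higher, and with 10 principal components, which gave other classes, 28 of 40, each against 40.5% of genes. By role the 14 were unevenly placed: 3 of 3 immunoproteasome subunits, 3 of 4 activators and 3 of 4 structural beta subunits, but 1 of 3 constitutive catalytic subunits, 2 of 7 alpha subunits, 1 of 6 base ATPases and 1 of 11 non-ATPase subunits. The constitutive count moved with the processing. Psmb6 was called higher with averaging before the logarithm (1.23, limma adjusted p = 0.0102) and with 10 principal components (1.32, limma adjusted p = 0.00308). Psmb5 lost its call with centred values (0.55, limma adjusted p = 0.144) and without the erythrocyte-like class (0.46, limma adjusted p = 0.215). No test of the counts by role was made, and centred on the median gene 11 members were higher and 0 lower against 22% and 23.9% of genes. The structural subunit Psmb3 (beta3) was at 4.66, 4.84, 4.96, 4.8, 2.96 and 4.63 in T-cell-like cells (4.48 ± 0.75), against 1.81 ± 0.34 in endothelial-like and 1.94 ± 0.56 in KC-like cells, and was higher by 2.49 ± 0.32 (6 of 6 mice, limma adjusted p = 4.47e-08). Psmb1 (beta6) was higher by 1.76 ± 0.36 (limma adjusted p = 0.000119), with mouse values from 3.18 to 6.71.

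Endothelial-like cells had 2 members higher (5.13%) and 5 lower (12.8%), against 19% and 21.2% of all genes. The lower ones were Psmb8, Psmb9, Psme1, Psme2b and Psme3, that is, 2 immunoproteasome subunits and 3 activators, and none was a constitutive catalytic, alpha, structural beta or ATPase subunit. The constitutive subunit Psmb5 was lower by −0.65 in every mouse without passing the threshold (limma adjusted p = 0.127). It was called lower in cells with at least 2000 genes (−1.32, limma adjusted p = 0.00128) and without the erythrocyte-like class (−1.10, limma adjusted p = 0.00217). With 10 principal components it was also called lower (−0.83, limma adjusted p = 0.0452). Those higher were Psmd3 and Psmd7, of the lid of the regulatory particle. Psmd3 was at 2.65, 2.85, 3.01, 3.46, 1.78 and 3.79 (2.92 ± 0.70) and higher by 1.17 ± 0.34 in 6 of 6 mice (limma adjusted p = 0.00567), and Psmd7 was higher by 0.65 ± 0.26 in 4 of 6 (0.0469). These calls moved with the processing, and the roles of the 5 lower genes were not tested against those of the other members. Of the 5, the calls of Psmb9, Psme1 and Psme3 were lost under at least 1 alternative, and Psme2b turned from −1.06 to 0.0085 with averaging before the logarithm. That setting gave 5 higher and 1 lower of 47, against 26.7% and 7.82% of genes. In cells with at least 2000 genes 2 members were higher and 12 lower (15.6% and 28.2% of genes), and without the erythrocyte-like class 1 and 12 (15.3% and 29.8%). Without ND1 there were 1 higher and 3 lower (18.7% and 19% of genes), and centred on the median gene 1 and 7 (18.3% and 23.7%).

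B-cell-like cells had 0 members higher and 2 lower (5.13%), against 13.3% and 21.2% of all genes: Psme2 (−1.11 ± 0.33, limma adjusted p = 0.0079) and Psmd2, a scaffold of the regulatory particle (−0.86 ± 0.25, limma adjusted p = 0.0062). When RPKM values were averaged before the logarithm, 8 of 47 members were higher and 0 lower in B-cell-like cells against 26.4% and 10.8% of genes, and Psme2 turned to 0.23; in KC-like cells there were then 6 higher and 0 lower against 14.5% and 3.94%. KC-like cells had 1 higher and 1 lower (2.56% each), against 12.3% and 16.5%. The alpha subunit Psma6 was at 4.82, 6.12, 5.36, 4.97, 2.27 and 3.65 in KC-like cells (4.53 ± 1.37) and higher by 1.37 ± 0.38 in 5 of 6 mice (limma adjusted p = 0.00574). Psmd8, of the lid, was lower by −0.71 ± 0.25 (limma adjusted p = 0.0307), a call lost without any of ND1, ND2, ND3 or HFD2 (−0.74 to −0.58, limma adjusted p from 0.0659 to 0.0738). Centred on the median gene KC-like cells had 1 member higher and 0 lower (13.7% and 11.1% of genes), and with each cell rescaled to the same RPKM total 1 higher and 3 lower (9.87% and 21.2%). In cells with at least 2000 genes B-cell-like cells had 0 members higher and 15 lower, against 9.04% and 29.4% of genes. The B-cell-like and KC-like contrasts, like the endothelial-like one, depended on the erythrocyte-like class being among those averaged: without it, 17 members were called in B-cell-like cells and 8 in KC-like cells, all lower, with 32.7% and 34.1% of all genes lower, and Psmb8 was then lower in both (−0.71 and −0.70, limma adjusted p = 0.00601 and 0.00815).

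In erythrocyte-like cells 36 of 39 members (92.3%) were lower and 1 higher (2.56%), against 86.3% and 1.15% of all genes. The median of all genes' differences was −1.08 in this class, and Psme2b (−4.51 ± 0.32) and Psme1 lay farthest below it. The alpha subunits Psma2 (−3.13 ± 0.33, limma adjusted p = 4.77e-10) and Psma7 (−2.47 ± 0.39, 1.45e-06) were lower in 5 of 5 mice each. Centred on the median gene, 16 members were lower and 1 higher against 16.6% and 6.09% of genes. These cells had the fewest genes per cell, and a loss of transcripts and a lower depth cannot be told apart here.

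**Figure D4:**
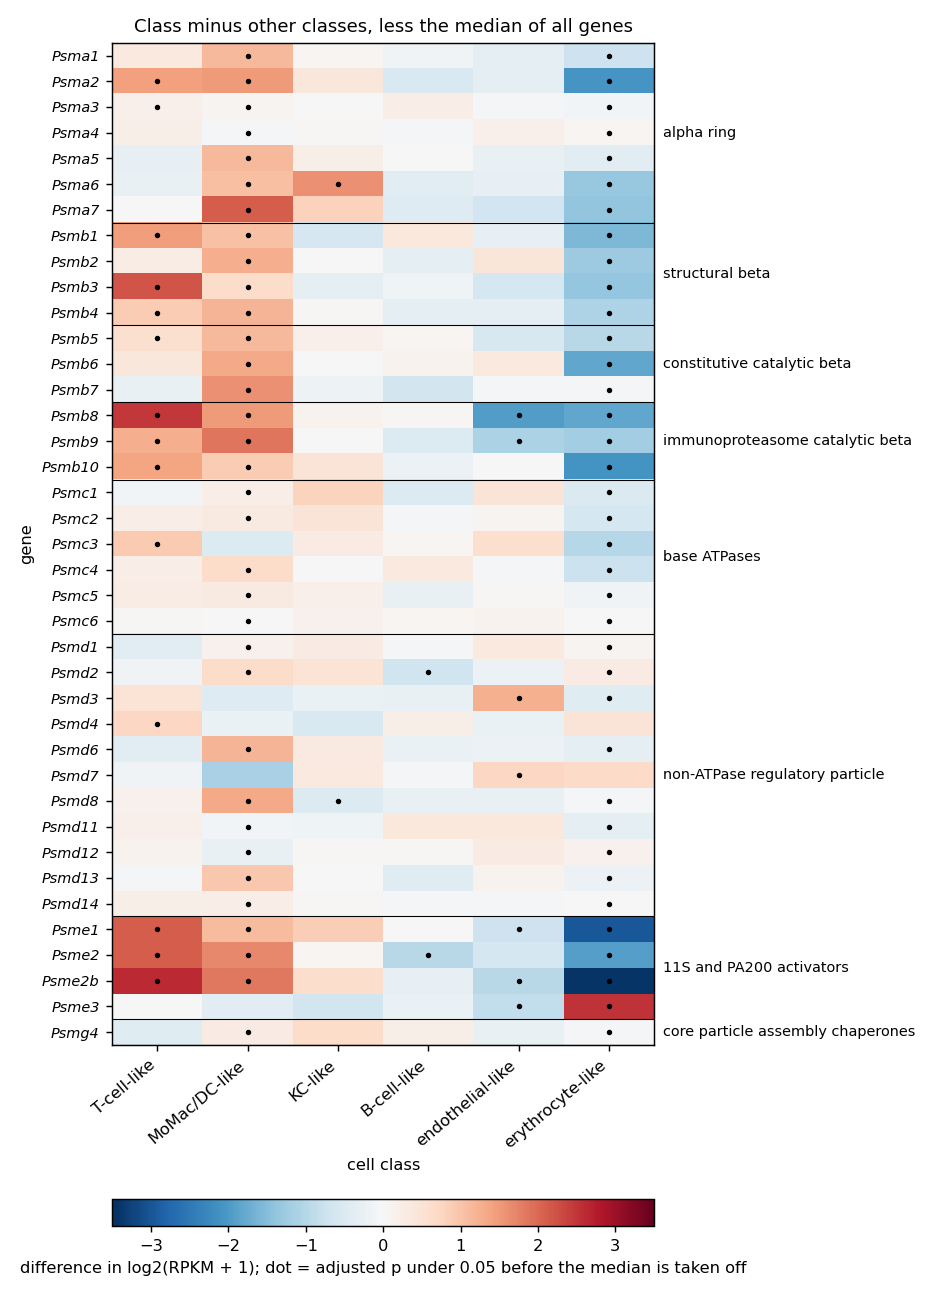
Heat map of the 39 tested members (vertical axis, ordered by role) in the 6 compared cell classes (horizontal axis), coloured by the class minus other classes difference in log2(RPKM + 1) less the median of all genes, with a dot where the adjusted p was under 0.05. In T-cell-like cells the darkest fields are Psme2b (2.62), Psmb8 (2.46) and Psmb3 (2.20), and in erythrocyte-like cells Psme3 (2.53) is the 1 dotted gene above 0 before the median is taken off.

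Other genes of the pathway followed some of the same contrasts. Of 14 genes of MHC class I presentation, 12 were higher in T-cell-like, 11 in MoMac/DC-like and 5 in KC-like cells, with 4 higher and 1 lower in endothelial-like cells, 2 higher and 3 lower in B-cell-like cells and 13 lower in erythrocyte-like cells. As shares of the list, the 85.7% higher in T-cell-like and 35.7% higher in KC-like cells stood against 32.1% and 12.3% of all genes. The other shares were nearer to the background: 78.6% higher against 62.4% in MoMac/DC-like, 28.6% higher and 7.14% lower against 19% and 21.2% in endothelial-like, 14.3% higher and 21.4% lower against 13.3% and 21.2% in B-cell-like, and 92.9% lower against 86.3% in erythrocyte-like cells. The 1 lower in endothelial-like cells was Tap1, the transporter gene that shares its start region with Psmb9 (−1.25 ± 0.37, 6 of 6 mice, limma adjusted p = 0.00593), and in T-cell-like cells Tap1 was higher by 2.39 ± 0.37 (1.53e-06). In T-cell-like cells the class I heavy chain H2-K1 was higher by 2.60 ± 0.20 (limma adjusted p = 3.15e-13) and Nlrc5, the transactivator of class I genes, by 1.79 ± 0.23 (5.39e-08).

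Of 12 regulators of the interferon response, 4 were higher and 4 lower in T-cell-like cells, 11 were higher in MoMac/DC-like cells, 3 were lower in endothelial-like cells and 12 were lower in erythrocyte-like cells (100%, against 86.3% of all genes). B-cell-like cells had 2 higher and 4 lower (16.7% and 33.3%, against 13.3% and 21.2% of all genes), and KC-like cells 2 higher and 1 lower (16.7% and 8.33%, against 12.3% and 16.5%). The 33.3% higher in T-cell-like and 25% lower in endothelial-like cells were near the 32.1% and 21.2% of all genes, while the 33.3% lower in T-cell-like and 91.7% higher in MoMac/DC-like cells stood against 17.5% and 62.4%. Irf1, a transcription factor known to act on Psmb8 and Psmb9, was higher in T-cell-like cells by 1.63 ± 0.32 (5 of 6 mice, limma adjusted p = 6.12e-05), while Irf8 was lower there by −1.99 ± 0.34 (7.19e-06). In endothelial-like cells the interferon-gamma receptor gene Ifngr1 (−1.41 ± 0.31, limma adjusted p = 0.000271), Irf7 (−1.29 ± 0.25, 6.88e-05) and Irf8 (−1.45 ± 0.34, 0.000613) were lower. Of 15 further genes of the proteasome and ubiquitin system, 3 were higher and 1 lower in endothelial-like cells and 4 higher and 2 lower in T-cell-like cells, and 12 were higher in MoMac/DC-like cells. B-cell-like cells had 3 lower (20%, against 21.2% of all genes), KC-like cells 1 higher (6.67% against 12.3%) and erythrocyte-like cells 12 lower (80% against 86.3%). The shares lower were 13.3% in T-cell-like and 6.67% in endothelial-like cells, below the 17.5% and 21.2% of all genes. The shares higher, 20% in endothelial-like and 26.7% in T-cell-like cells, were near the 19% and 32.1% of all genes, and the 80% in MoMac/DC-like cells stood against 62.4%. Of this list, Nfe2l1, the factor that drives constitutive subunit genes when proteasome activity falls short, was higher in endothelial-like cells by 1.61 ± 0.23 (6 of 6 mice, limma adjusted p = 4.29e-07). Pomp, the maturation factor of the core, was higher in MoMac/DC-like cells by 3.61 ± 0.26 (limma adjusted p = 3.56e-14).

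To ask whether the high-fat diet altered the proteasome, HFD and ND mice were compared within each class. No member passed the test in any class or in the mean over the 5 classes with all mice, by limma over 1400 to 5272 genes, and the background was 0% of genes in every such comparison except for 0.0289% lower in KC-like cells. At an unadjusted p under 0.05 there were 3 of 40 members in B-cell-like, 2 of 38 in KC-like, 4 of 41 in MoMac/DC-like, 5 of 41 in T-cell-like, 1 of 38 in endothelial-like and 3 of 17 in erythrocyte-like cells, against 3.54%, 1.42%, 3.77%, 3.76%, 3.46% and 7.5% of all genes. For the mean over classes it was 4 of 39 against 2.45%. Differences were mostly negative, that is, lower in HFD mice, and so were those of all genes. Negative differences were found for 38 of 41 members in T-cell-like cells (77.1% of all genes), 32 of 38 in KC-like (65.1%), 30 of 38 in endothelial-like (68.5%), 29 of 40 in B-cell-like (75.7%), 26 of 41 in MoMac/DC-like (55.6%) and 12 of 17 in erythrocyte-like cells (60.8%), and for 32 of 39 in the mean over classes (75.2%). Medians over members ran from −0.66 in T-cell-like to −0.20 in endothelial-like cells and those over all genes from −0.30 to −0.12. HFD2, the mouse with the fewest genes per cell, was among the HFD mice, and the part of depth in these signs was not tested.

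Among the catalytic subunits, Psmb8 in endothelial-like cells had ND values of 5.46, 4.74 and 4.78 and HFD values of 4.2, 2.97 and 4.66. The HFD values all lay below the ND values, with HFD3 only just below. The difference was −1.05 ± 0.47 (limma p = 0.0381, adjusted p = 1), and −0.57 without HFD2. Psmb6 in B-cell-like cells was at 3.69, 4.01 and 4.26 in ND mice and at 2.87, 1.23 and 3.04 in HFD mice, again without overlap (−1.61 ± 0.55, limma p = 0.00995, adjusted p = 0.998). Without HFD2 that difference was −1.03. Across classes, Psmb8 differed by −0.50 to −1.05 and Psmb5 by −0.98 to 0.07, none past the threshold.

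Among the other members, Psma1 (alpha ring) in MoMac/DC-like cells was at 5.29, 6.13 and 4.72 in ND mice and at 2.55, 3.04 and 2.88 in HFD mice, without overlap (−2.55 ± 0.86, limma p = 0.00515, adjusted p = 0.998). That difference was −2.66 without HFD2. Psme1 in the same class was at 8.56, 7.90 and 8.39 in ND and 6.67, 4.04 and 6.60 in HFD mice (−2.51 ± 0.90, limma p = 0.00805, adjusted p = 0.998), a difference of −1.65 without HFD2. In T-cell-like cells Psmd8 was at 5.22, 3.41 and 3.43 against 2.14, 2.08 and 2.89 (−1.65 ± 0.57, limma p = 0.00756, adjusted p = 0.999), and the difference was −1.51 without HFD2. In each of these 3 the HFD mice were all lower, but genes without overlap between the diets were no rarity: they made up 8.57% of all genes in MoMac/DC-like and 7.82% in T-cell-like cells, where 4 and 2 members had no overlap. The counts were 5 members against 9.64% of genes in B-cell-like, 2 against 4.63% in KC-like, 4 against 6.81% in endothelial-like and 5 against 23.1% in erythrocyte-like cells, and for the mean over classes 5 members against 6.43% of genes.

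The other members with the 3 smallest p of a class were mostly of the alpha ring, and none passed the test (limma adjusted p from 0.62 to 1). In KC-like cells these were Psma6 (−1.81 ± 0.65), Psme2b (−1.39 ± 0.63) and Psma2 (−1.0 ± 0.57), which came to −1.13, −0.85 and −0.47 without HFD2. T-cell-like cells had Psma7 (−1.48 ± 0.61) and Psma6 (−1.40 ± 0.59), at −0.67 and −0.79 without HFD2, and MoMac/DC-like cells Psma2 (−2.30 ± 0.95), at −1.49 without it. In B-cell-like cells Psma5 (−1.20 ± 0.48) and the base ATPase Psmc3 (−1.14 ± 0.51) did not overlap between the diets, at −1.15 and −0.93 without HFD2. Psma4 in endothelial-like cells did not overlap either (−0.77 ± 0.42, and −0.78 without HFD2), and Psme1 differed there by −0.96 ± 0.50 (−0.42 without HFD2). Over classes the differences were −1.13 ± 0.47 for Psma2, −1.06 ± 0.49 for Psme1 and −0.98 ± 0.46 for Psma6, and −0.55, −0.34 and −0.42 without HFD2. In erythrocyte-like cells, with 3 ND and 2 HFD mice, Psmb9 (−1.81 ± 0.74) and the structural subunit Psmb4 (−1.81 ± 0.77) had lower values in both HFD mice than in the ND mice, and Psmd4, a ubiquitin receptor of the regulatory particle, was at 3.31, 1.86 and 0.91 in ND and 4.13 and 3.82 in HFD mice (1.95 ± 0.81). Most of these differences thus shrank once HFD2 was left out, but those of Psma4 and Psma5 hardly changed. The erythrocyte-like differences were not fitted without HFD2.

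**Figure D5:**
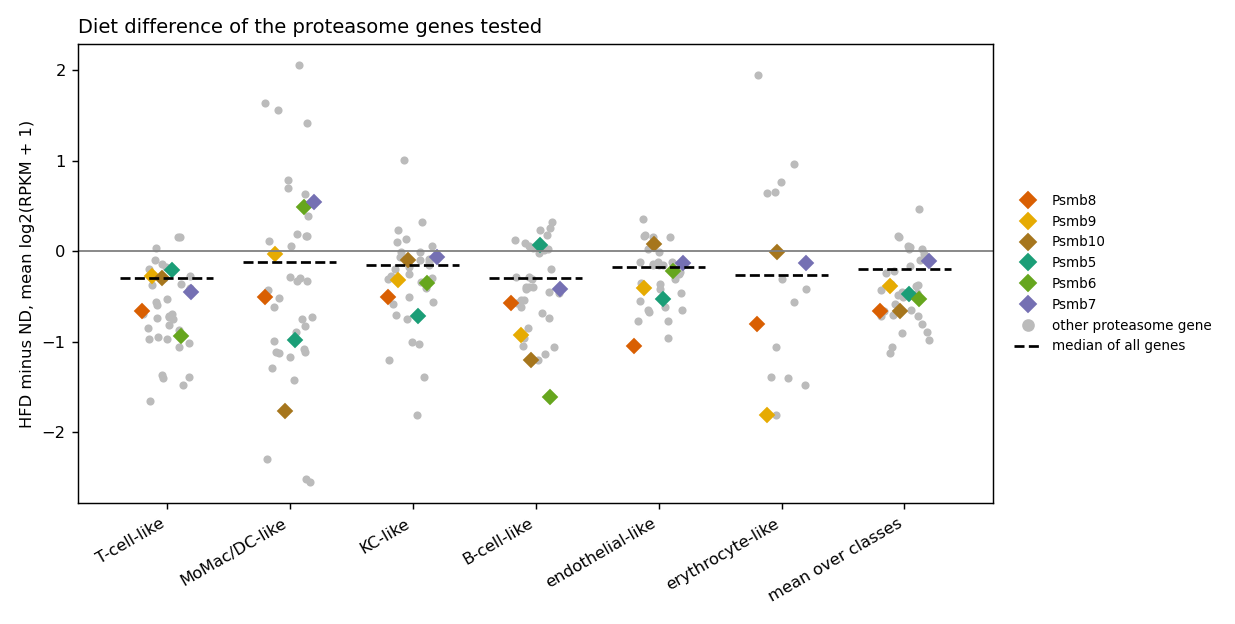
HFD minus ND difference in log2(RPKM + 1) of the members (points) in each cell class and in the mean over classes (horizontal axis), with coloured diamonds for the catalytic subunits and a dashed line at the median of all genes tested. Most points lie below 0, as do the medians of all genes (−0.30 in T-cell-like cells), and no member passed the test.

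The balance between immunoproteasome and constitutive subunits did not separate the diets. The 18 pair differences compared between HFD and ND mice overlapped in every class, with exact p from 0.2 to 1, where 3 mice against 3 cannot give less than 0.1. For the beta5 pair in T-cell-like cells ND mice had 5.65 ± 0.38 and HFD mice 5.20 ± 0.56, and in endothelial-like cells 2.94 ± 0.79 and 2.42 ± 0.77. With classes from marker scores the T-cell-like difference between the diets changed sign. The largest difference was that of the beta2 pair in MoMac/DC-like cells (−2.31), where ND mice ran from 0.88 to 3.36 and HFD mice from −2.81 to 2.22. Whether the diet difference varied with the class was tested over the 5 classes with all mice, and 0 of 39 members passed (limma F test) against 0.136% of all genes. At an unadjusted p under 0.05 there were 5 members against 7.32% of genes, and the smallest was that of the lid subunit Psmd6 (limma p = 0.000872, adjusted p = 0.175).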

How the data were processed

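Expression was measured by Smart-seq2 in 1470 single cells from 3 ND and 3 HFD mice. The authors demultiplexed reads with bcl2fastq, aligned them with STAR to mm10, kept uniquely mapped reads, computed RPKM on RefSeq genes with rpkmforgenes and removed low-quality cells and doublets before they deposited the RPKM values. All columns were mapped to a mouse by their labels (0 unmapped). Read totals per cell are not used here, so depth is given as genes per cell at 1 RPKM or more. The labels name mice, and p-values take these mice as replicates. In the class fits, differences between mice were removed as a block, and the remaining spread of a gene was estimated over all classes together. The SE and p of a class difference therefore do not measure the spread between the mice of that class alone.

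RPKM values were taken as log2(RPKM + 1), a scale that understates changes of low genes. Clustering used scikit-learn 1.9.0: the 1000 genes of highest variance (1 RPKM or more in at least 10 cells) entered, without 91 members and listed pathway genes, were reduced to 20 principal components and joined into a 15-neighbour graph for the spectral method. Between 12 and 25 clusters were tried, and the fewest that named every class, 21, were kept. A cluster took the class with the highest mean marker score if at least 3 of its markers were detected (in at least 25% of cells) and no other class had more markers among its 10 leading genes. This naming rule was tightened after seeing clusters, before member values were looked at.

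Log2 values were averaged per mouse and class with at least 5 cells, which gave 35 values per gene in 6 classes with at least 4 mice. limma 3.58.1 in R 4.3.3, without a mean-variance trend, tested each class against the mean of the others and each pair of classes with the mouse as a block, HFD against ND within classes and over classes, and the diet by class terms, over genes averaging at least 1, with Benjamini-Hochberg adjustment over all genes tested and a threshold of 0.05. Paralog pairs were tested within mice by an exact two-sided sign-flip test, and between diets by exact two-sided permutation. Genes were named by a fixed rule: the catalytic subunits, Psme1, Psme2 and Psme3 throughout, up to 3 further members per direction and class with the same sign in every mouse, the 3 members with the smallest diet p per class, and members that make up a small count. Genes of the pathway lists were picked for description after their values were seen. The members and lists were chosen with earlier results of these data known. The fits were tested on simulated data. Alternatives covered the pseudocount, averaging before the logarithm, rescaling, filters, class definitions, spread estimates, each mouse left out and the replicate number as a block. After seeing the data, fits without the erythrocyte-like class and with centred values were added.

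Promoter windows and gene positions come from RefSeq (GRCm38.p6) and GENCODE (GRCm38) with exact string matches of the motifs; 1 further motif is not reported here. No entry was used for Psmb7.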

Additional observations from a re-analysis of the deposited data

Results flagged for a closer look

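Of 72 groups of 5 or 6 mice examined for a value far from the rest, 3 had one by Dixon's criterion, where chance gives about 1 in 20 groups. In all 3 the value was that of HFD2, the mouse with the fewest genes per cell, and it was the lowest. Psmb5 in T-cell-like cells was at 1.857 in HFD2 and at 2.997 to 3.637 in the other mice. Psme1 in T-cell-like cells was at 6.149 in HFD2 and at 7.284 to 7.902 in the others. Psme2 in MoMac/DC-like cells was at 1.751 in HFD2, from 6 cells, and at 5.262 to 6.46 in the others. The part of depth in these values was not tested.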

How the results depend on the processing

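Diet counts and the diet by class count stayed at 0 members under every alternative run. ND and HFD mice of the same number correlated at 0.214, 0.045 and 0.147 across 4414 genes, each best with its own number. The numbers were not taken as pairs, since the labels tie no mice together and 1 of the 3 correlations was under 0.1, and with the replicate block 0 members were called in any diet comparison. Members called in a class moved as follows, with the share of all genes called in the same direction where the count moved most. For B-cell-like cells (2 called) there were 8 with averaging before the logarithm (all higher, 26.4% of genes), 15 in cells with at least 2000 genes (all lower, 29.4%), 4 with 10 principal components, 5 with classes from marker scores, 1 among genes averaging at least 2 and 17 without the erythrocyte-like class (all lower, 32.7%). For KC-like cells (2) there were 6, 4, 5 and 6 under the first 4 of these, 4 with cells rescaled, 1 without a low-value filter, 8 without the erythrocyte-like class (all lower, 34.1%), 1 with centred values and 1 without the mouse block. For MoMac/DC-like cells (34) there were 17 with averaging before the logarithm (16 higher, 15%), 21 among genes averaging at least 2 (all higher, 71.5%) and 22 centred (21 higher, 25.8%). T-cell-like cells (14) had 28 with averaging first and 28 with 10 principal components (all higher, 40.5% of genes in both), where no number of clusters named every class: 3 clusters went unnamed, no class was NK-like or pDC-like and the T-cell-like class held fewer cells, so the classes compared are not the same. Endothelial-like cells (7) had 14 in cells with at least 2000 genes (12 lower, 28.2%), 4 without the filter, 4 with genes averaging at least 2, 13 without the erythrocyte-like class (12 lower, 29.8%) and 4 without the mouse block. Erythrocyte-like cells (37) had 22 with genes averaging at least 2 (all lower, 93.1%) and 17 centred (16 lower, 16.6%). Leaving out 1 mouse gave 2 to 3 for B-cell-like, 1 to 3 for KC-like, 30 to 34 for MoMac/DC-like, 12 to 19 for T-cell-like, 4 to 8 for endothelial-like and 35 to 39 for erythrocyte-like cells. Averaging first turned the calls to 8 higher and 0 lower in B-cell-like and 6 and 0 in KC-like cells, and it reversed Psmb6 (1.36, from −0.03), Psme1 (0.77, from −0.17) and Psme2 (0.23, from −1.11) in B-cell-like and Psme2b (0.0085, from −1.06) in endothelial-like cells. Of the 90 contrasts of pairs of classes over the catalytic subunits 57 were called (against 24.6% to 81.3% of all genes over the 15 contrasts), 36 with averaging first, 30 of 60 in cells with at least 2000 genes and 34 of 60 without the erythrocyte-like class. Within classes, Psmb8 minus Psmb5 in erythrocyte-like cells became 5.36 with a pseudocount of 0.1 and Psmb10 minus Psmb7 there 1.83 with marker scores. Psmb9 minus Psmb6 reached the smallest exact p in T-cell-like cells with averaging first (1.05) and marker scores (1.35) and in endothelial-like cells with at least 2000 genes (−0.77). Between diets, Psmb10 minus Psmb7 became 0.63 in B-cell-like cells with averaging first, and over classes −0.039 with averaging first, 0.54 in cells with at least 2000 genes and 0.063 with marker scores. Psmb8 minus Psmb5 became 1.25 in KC-like cells with at least 2000 genes and 0.14 in T-cell-like cells with marker scores, and Psmb9 minus Psmb6 in B-cell-like cells −0.073 with averaging first and 0.16 with marker scores. For all of these the cause was not tested. In simulated diet differences of endothelial-like cells over 4156 genes, 6% of genes shifted by 1 log2 unit and 48% of those shifted by 2 were recovered; the other classes were not simulated.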

Other observations

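Over the 35 mouse and class values, the genes most like the mean of Psmb8, Psmb9 and Psmb10 among 3949 other genes tested were Gapdh (Pearson r = 0.944), Ppp1ca (0.933), Eif5a (0.93), Dad1 (0.926) and Arpc1b (0.923), which are housekeeping, phosphatase, translation, glycosylation and actin genes. Genes of antigen presentation and of the interferon response ranked lower. The highest 4 of 26 were Ifngr1 at 0.86, Tapbp at 0.812, Tap1 at 0.8 and Irf1 at 0.782, and the lowest were Irf8 at 0.419 and Irf7 at 0.262. The values share mice, libraries and depth, so these are descriptions without a test.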
